A study of Mus musculus with 6 samples.

Results

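The genes for the colony-stimulating factors and their receptors were followed across the cells of the mouse heart other than cardiomyocytes after a sham operation or an infarct. They comprised 4 growth factor genes (Csf1, Csf2, Csf3 and Il34) and 4 receptor genes (Csf1r, Csf2ra, Csf2rb and Csf3r). The members were chosen by symbol, and all 8 were found among the 32285 genes of the deposited matrices. The hearts came from male mice aged 8 to 12 weeks. Wild-type (WT) mice were C57BL/6JRj, and knockout (KO) mice carried the B6.Cg-Trpm4tm1.2-PG allele of Trpm4, an ion channel gene. What the allele lacks of Trpm4 is not given in the labels. Mice of each genotype were sampled 24 h after a sham operation, or 24 h or 72 h after the left anterior descending (LAD) coronary artery had been tied off. No sham group was sampled at 72 h. Thermolysin and papain freed the cells from the ventricles, meshes held back large tissue pieces and cardiomyocytes, and viable cells were then sorted on Calcein-AM and DAPI signal. Cells of 4 mice were pooled into 1 library for each of the 6 groups, so no difference between groups has a replicate check.

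Colony-stimulating factors are secreted proteins that keep myeloid cells alive and drive them to divide, mature and become active. Csf1 and Il34 bind the same receptor, the tyrosine kinase encoded by Csf1r, on which monocytes and most tissue macrophages depend. Csf2 (GM-CSF) signals through an alpha chain encoded by Csf2ra paired with the common beta chain encoded by Csf2rb, and Csf3 (G-CSF) through Csf3r, the receptor that governs the output and release of neutrophils. The receptors of Csf2 and Csf3 act through JAK kinases and STAT factors, which in turn induce feedback inhibitors such as Cish and the Socs genes. After an infarct, neutrophils enter the heart first and monocytes follow.

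The matrices held 34940 cells, of which 32085 were kept and fell into 38 clusters. Clusters were named from marker genes, with none of the 8 genes used to build them, so every class below depends on these rebuilt names. The median cell had between 3076 and 8011 UMIs (unique molecular identifiers, 1 per captured RNA molecule) in 5 libraries and 1351 in KO ligation 72 h, where 53.9% of kept cells had under 1500 UMIs against 6.06% to 10.9% elsewhere. Of the cell barcodes, 118 occurred in more than 1 library. Trpm4 gave 8.79, 5.52 and 4.29 CPM in WT sham, WT ligation 24 h and WT ligation 72 h, and 6.20, 3.46 and 2.57 in the KO libraries. Reads from the 3' end check the knockout only if they fall in the missing part, so these values are no test of the labels. Below, the level of a gene is its share of the UMIs of a class in a library, scaled to a total of 1000000 (CPM; for Trpm4, of all UMIs), and a range in brackets is an exact 95% interval that covers counting error only. A ratio of 2 libraries was called higher or lower at 2-fold or more, with at least 20 UMIs over the pair and at least 50 cells of the class in both libraries. The call is a rule of size and not a test.

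The promoters of 3 members are shown because they belong to the main growth factor of these cells and to 2 receptor genes. Among the main classes named below, neutrophils had the highest CPM of both receptor genes. Each window runs from 250 bases before to 50 bases after the RefSeq transcript start (GRCm38.p6). The Csf1 window is chr3:107760420-107760719 on the minus strand, the Csf3r window chr4:126024409-126024708 on the plus strand and the Csf2ra window chr19:61228369-61228668 on the minus strand. Capitals mark GAGGAA, the core of the motif of PU.1, the myeloid factor encoded by Spi1.
Csf1: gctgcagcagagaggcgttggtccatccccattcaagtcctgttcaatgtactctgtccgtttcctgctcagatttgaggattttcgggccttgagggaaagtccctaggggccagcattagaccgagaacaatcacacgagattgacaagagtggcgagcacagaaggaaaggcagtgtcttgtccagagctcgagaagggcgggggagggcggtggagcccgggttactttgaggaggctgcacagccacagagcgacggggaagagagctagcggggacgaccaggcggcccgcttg
Csf3r: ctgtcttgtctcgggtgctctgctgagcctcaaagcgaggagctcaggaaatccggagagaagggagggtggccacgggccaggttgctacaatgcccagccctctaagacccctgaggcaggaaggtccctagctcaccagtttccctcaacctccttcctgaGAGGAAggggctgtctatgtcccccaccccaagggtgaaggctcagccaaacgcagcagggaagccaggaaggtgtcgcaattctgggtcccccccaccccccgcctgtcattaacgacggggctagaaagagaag
Csf2ra: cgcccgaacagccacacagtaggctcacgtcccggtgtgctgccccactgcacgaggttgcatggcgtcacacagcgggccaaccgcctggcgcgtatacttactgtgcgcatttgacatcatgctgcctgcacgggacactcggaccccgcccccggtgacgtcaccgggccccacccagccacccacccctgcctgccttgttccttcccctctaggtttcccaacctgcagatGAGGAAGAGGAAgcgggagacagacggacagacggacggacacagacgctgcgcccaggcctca
GAGGAA begins 86 bases before the start in Csf3r, and in Csf2ra 14 and 8 bases before it, with the 2 copies side by side. The Csf1 window held it on neither strand. The motif was chosen after the sequences had been read, and 28.3% of the 32851 windows of the same length held it on either strand. A match is a description of letters and not a shown binding site, and its absence says only that these letters are not in the window.

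Over the 4 main classes (neutrophils, monocyte/macrophage cells, fibroblasts and endothelial cells) there were 32 pairs of a member and a class, of which 20 or 21 could be measured in each comparison. For WT ligation 24 h against sham, 3 pairs were higher and 0 lower, 14.3% of those measured, where 11.4% of all genes' pairs were called (4.74% higher and 6.65% lower). For KO ligation 24 h against sham, 6 were higher and 2 lower, 38.1% against 12.8% of all (4.2% higher and 8.57% lower). From 24 h to 72 h after ligation, 2 were higher and 7 lower in WT, 42.9% against 25.3% of all (14.5% higher and 10.8% lower). In KO, 6 were higher and 2 lower over that interval, 38.1% against 22.6% of all (16.0% higher and 6.68% lower). For KO against WT after sham, 1 was higher and 2 lower, 15% against 4.0% of all (2.38% higher and 1.63% lower). At 24 h after ligation, 4 were higher in KO and 0 lower, 19.0% against 5.22% of all (2.23% higher and 2.99% lower). At 72 h, 9 were higher in KO and 0 lower, 42.9% against 9.58% of all (6.84% higher and 2.74% lower). Most of the pairs called higher were receptor genes in fibroblasts and endothelial cells: 2 of the 3 in WT and 5 of the 6 in KO at 24 h against sham, 6 of the 6 in KO at 72 h against 24 h, and 8 of the 9 in KO against WT at 72 h. The pairs of KO ligation 72 h, and endothelial Csf3r of KO ligation 24 h, are described further down. Marker genes of other classes were higher beside them. For the remaining pairs no marker values are given. The counts above the share of all genes are not read as a result about the genes themselves. The comparisons share libraries (the 24 h libraries enter 3 kinds of comparison), so their counts are not independent.

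Csf1 (chr3:107741048-107760469, minus strand, GRCm38) was the growth factor gene with the most UMIs, 12661 in kept cells, and neutrophils had its highest level of the 4 main classes in every library. In neutrophils the level was 653 CPM in WT sham, 584 in KO sham, 352 in WT ligation 24 h, 282 in KO ligation 24 h, 434 in WT ligation 72 h and 462 in KO ligation 72 h. Fibroblasts came next among those classes, with 119, 124, 227, 204, 67.6 and 85.6 CPM in the same order of libraries. The neutrophil level was thus highest after sham and lowest at 24 h, and the fibroblast level was highest at 24 h and lowest at 72 h, in both genotypes. An unnamed cluster of 2 to 51 cells per library, led by the platelet genes Nrgn and Clec1b, had Csf1 levels of 201 to 1007 in the 5 libraries other than KO ligation 72 h, from 7 to 33 UMIs, and carried Csf3r at neutrophil levels (1128 to 2909 over all 6 libraries). Mesothelial cells of KO ligation 72 h had 109 CPM of Csf1, with an interval that overlapped that of fibroblasts. Endothelial cells had 16.7 to 45.5 CPM, and their intervals overlapped those of pericytes and smooth muscle cells in all 6 libraries. Monocyte/macrophage cells, which carry the receptor, had 2.10 to 17.4 CPM, below each of these classes in the other 4 libraries, while in KO sham and KO ligation 72 h their interval overlapped that of pericytes.

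Neutrophils were above fibroblasts in CPM in every library, and per cell in 3 of the 6. The median fibroblast had 8783 to 10761 UMIs in 5 libraries and 1087 in KO ligation 72 h, and the median neutrophil 1974 to 3166. After sham, neutrophils held 1.58 (WT) and 1.34 (KO) Csf1 UMIs per cell against 1.27 and 1.21 per fibroblast. At 24 h after ligation, neutrophils held 1.28 and 0.786 against 2.94 and 2.70 per fibroblast. At 72 h the values were 0.941 against 1.48 in WT and 0.919 against 0.202 in KO. With each cell thinned to 1000 UMIs, a Csf1 UMI was found in 35.5%, 29.2%, 21.1%, 18.4%, 25.3% and 31.1% of neutrophils and in 8.89%, 12.0%, 16.8%, 15.1%, 9.35% and 7.42% of fibroblasts (WT sham, KO sham, WT and KO at 24 h, WT and KO at 72 h). Thinning left out 12 to 50 neutrophils and 1 to 8 fibroblasts per library, but 559 fibroblasts of KO ligation 72 h. Unthinned, the shares were 32.0% to 54.4% of neutrophils and 12.4% to 69.5% of fibroblasts. Monocyte/macrophage cells, the main class with the least Csf1, had 0.374% to 1.28% thinned and 2.39% to 8.98% unthinned. Csf1 in fibroblasts stood at 15.6% to 72.4% of its neutrophil level. The median of 10 neutrophil marker genes there stood at 0.0314% to 5.34% of theirs. The part of neutrophil RNA in the fibroblast Csf1 values was not tested.

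**Figure D1:**
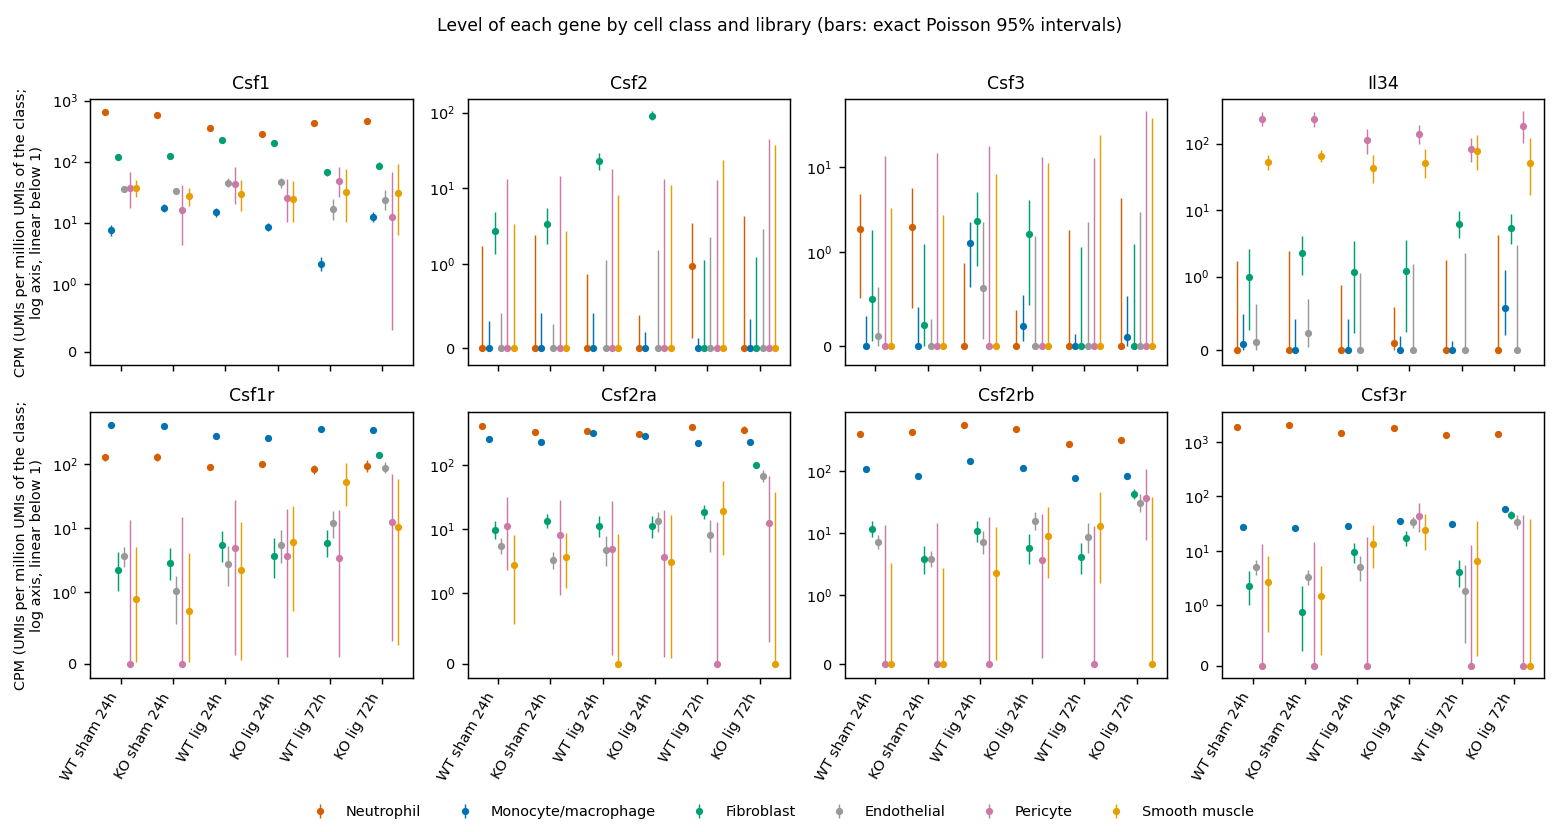
Level of the 8 genes in 6 cell classes and 6 libraries, in CPM on an axis that is logarithmic above 1, with bars for exact Poisson 95% intervals (counting error only). Csf1 and Csf3r are highest in neutrophils, Csf1r in monocyte/macrophage cells and Il34 in pericytes and smooth muscle cells, and in KO ligation 72 h the receptor genes are higher in fibroblasts and endothelial cells, where Csf1r reaches 138 and 87.0.

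After ligation, Csf1 was lower in neutrophils at 24 h than after sham, at 0.539 times in WT, short of the 2-fold rule, and 0.483 times in KO [0.448 to 0.522], past it (0.554 times with median-of-ratios scaling, no longer past it). In fibroblasts it was 1.91 times the sham level in WT [1.69 to 2.16] and 1.64 times in KO [1.45 to 1.86], both short of 2-fold. By 72 h the fibroblast level was 0.298 times that at 24 h in WT [0.254 to 0.349] and 0.419 times in KO [0.359 to 0.488], both called lower. Endothelial cells also had less at 72 h, 0.368 times in WT, called, and 0.526 times in KO, not called. Neutrophils had 1.23 and 1.64 times their 24 h level, but the median of all their genes also moved, by 0.64 in WT and 0.61 in KO on the log2 scale. Relative to that median, neutrophil Csf1 was 0.34 lower in WT (-0.34) and 0.10 higher in KO, so its direction from 24 h to 72 h in WT depended on the scaling. Between genotypes, Csf1 stayed within 2-fold in both classes, with KO to WT ratios of 0.802 to 1.07 in neutrophils and 0.902 to 1.27 in fibroblasts.

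Within neutrophils, Csf1 differed more between clusters than between genotypes. It was 482 to 812 CPM in the cluster led by Ccrl2, with Tnf, Siglecf and Ptgs2 among its leading genes, and 110 to 278 in the cluster led by Retnlg, with S100a8, S100a9 and Cxcr2. In every library the first was at least 482 and the second at most 278. The Ccrl2 cluster held 70.7% and 61.6% of neutrophils after sham, 14.1% and 19.97% at 24 h after ligation, and 62.1% and 73.3% at 72 h (WT and KO). At 24 h most neutrophils were in the clusters led by Cstdc4 (62.9% and 37.0%), with Csf1 at 339 and 363 CPM, and Retnlg (18.9% and 38.5%), with 127 and 110. Inside the Ccrl2 cluster, WT kept 788 CPM at 24 h against 812 after sham, while KO had 496 against 771. The other neutrophil clusters had lower values at 24 h than after sham in both genotypes. In WT the Retnlg, Cstdc4 and Gm13822 clusters went from 278 to 127, 515 to 339 and 651 to 484. In KO they went from 189 to 110, 963 to 363 and 459 to 376. After sham the Cstdc4 cluster had only 24 (WT) and 43 (KO) cells. None of the 8 genes was used for clustering, but genes that vary with them were.

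Fibroblasts were held by different clusters at each time. The cluster led by Cxcl5, with Cxcl1, Ptx3 and Timp1, made up 27.8% of WT and 40.1% of KO fibroblasts at 24 h after ligation and 6.28% in KO sham. Its Csf1 level was 361 [327 to 399] in WT ligation 24 h, 256 [231 to 284] in KO ligation 24 h and 244 in KO sham. The cluster led by Clec3b, with Dcn and Gsn, was seen in all 6 libraries, and its Csf1 level was 107, 114, 138, 138, 143 and 96.6 in the order given above. In that cluster the level thus moved little, and the intervals of WT sham [95.2 to 120.0] and WT ligation 24 h [118 to 161] barely overlapped. At 72 h most fibroblasts were in the cluster led by Cthrc1, with Postn and collagen genes, at 59.2 CPM in WT and 112 in KO.

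**Figure D2:**
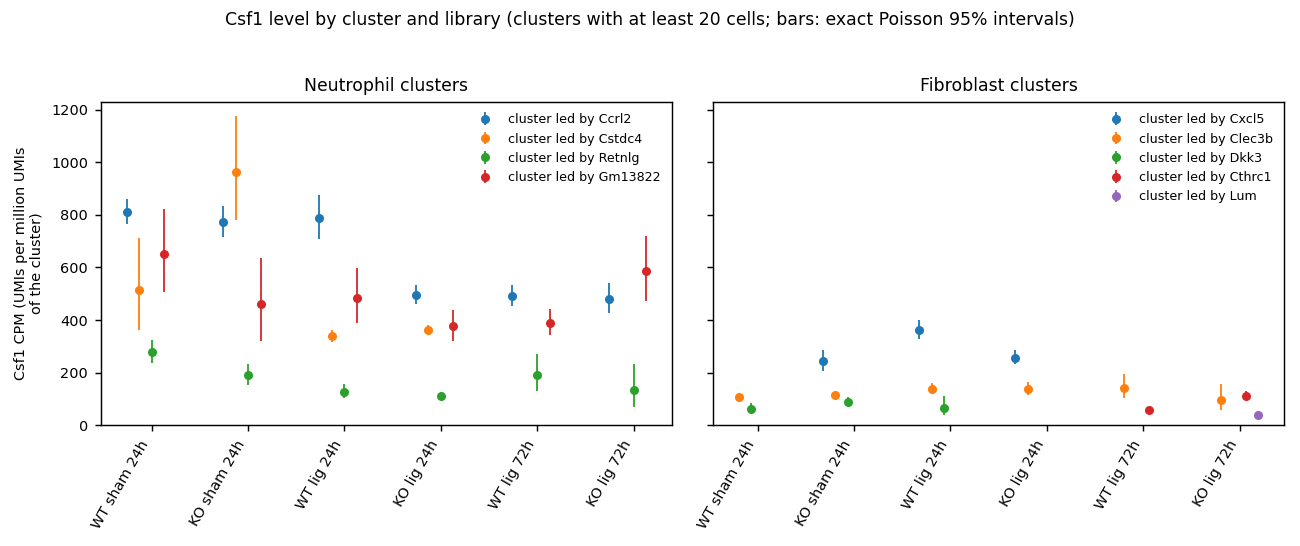
Csf1 level, in CPM of the cluster, in clusters of neutrophils (left) and fibroblasts (right) with at least 20 cells in a library, with exact Poisson 95% intervals. Among neutrophils the cluster led by Retnlg lies lowest in all 6 libraries, and among fibroblasts the cluster led by Cxcl5 reaches 361 at 24 h after ligation in WT.

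In monocyte/macrophage cells, Csf1 was scarce and uneven. It was 7.47 CPM in WT sham, 17.4 in KO sham, 14.7 in WT ligation 24 h, 8.44 in KO ligation 24 h, 2.10 in WT ligation 72 h and 12.4 in KO ligation 72 h, from 61 to 159 UMIs. The level was called higher in KO than in WT after sham, 2.33 times [1.77 to 3.07], and at 72 h, 5.93 times [4.34 to 8.17], and was lower in KO at 24 h, 0.573 times, short of 2-fold. The 72 h ratio was 3.31 in cells with at least 1500 UMIs and 1.67 as Csf1 UMIs per cell, the latter not called. In KO sham, 30 of the 153 UMIs came from 1 cell, so the ratios that use KO sham rest in part on that cell. In KO ligation 72 h, 78 of the 130 came from 1 cluster, led by Mpeg1, whose median cell had 824 UMIs and which held 1361 cells of that library and 48 of WT ligation 72 h. Neutrophil markers summed to 649, 689, 2578, 3355, 422 and 2214 CPM in monocyte/macrophage cells, and Csf1 there was 0.483% to 4.19% of its neutrophil level where those markers had a median of 0.274% to 3.30%. The part of these markers in the Csf1 values was not tested.

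Csf2 (chr11:54247271-54249667, minus strand) came almost wholly from a few fibroblasts. Of its 313 UMIs, 309 lay in 14 of the 176 cells of the Cxcl5-led cluster. In fibroblasts as a class the level was 2.75 CPM in WT sham (11 UMIs), 3.34 in KO sham (15 UMIs), 22.9 in WT ligation 24 h (59 UMIs) and 91.2 in KO ligation 24 h (225 UMIs), and 0 UMIs were found at 72 h. The level at 24 h after ligation was called higher than after sham, 8.35 times in WT [4.35 to 17.6] and 27.3 times in KO [16.2 to 49.7]. Against a floor of 3 UMIs it was at least 24.6-fold lower at 72 h in WT and at least 90.6-fold lower in KO. The Cxcl5-led cluster had 14 (WT) and 29 (KO) cells after sham, 55 and 75 at 24 h after ligation, and 3 and 0 at 72 h. The 72 h value is thus that of a class almost without these cells, and says little of the level inside them. The ratios at 24 h and 72 h also rest on single cells. The 11 UMIs of WT sham and the 15 of KO sham were each in 1 cell, those of WT ligation 24 h in 7 cells with 34, 11, 5, 4, 3, 1 and 1, and those of KO ligation 24 h in 6 cells with 181, 27, 12, 3, 1 and 1. The KO to WT ratio at 24 h was 3.98 [2.97 to 5.39], called higher, and 1.84 without the top cell of each library, no longer past 2-fold. The cell with 181 UMIs gave 80.4% of that library's Csf2. A further 20 UMIs in KO sham and 13 in KO ligation 24 h lay in cells removed as doublets. Of the 14 cells with Csf2, 12 (85.7%) also had a Csf1 UMI, as did 133 of the other 162 cells of the cluster (82.1%), and 0 had a Csf3 UMI.

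Csf3 (chr11:98701263-98703629, plus strand) gave 125 UMIs in all, and 101 of them were in WT ligation 24 h. There, 1 mesothelial cell of 9 held 76, 1 monocyte/macrophage cell held 10, 1 fibroblast held 6 and lymphatic endothelial cells held 5. WT sham had 10 UMIs, KO sham 4, KO ligation 24 h 9, WT ligation 72 h 0 and KO ligation 72 h 1. Without that mesothelial cell the library had 25, and no fold is given for a gene carried by 1 cell. Lymphoid sources of Csf2 were hardly seen, with 1 Csf2 UMI in T, NK and innate lymphoid cells (WT sham). The other reads of Csf2 outside fibroblasts were 2 UMIs in 1 neutrophil of WT ligation 72 h.

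**Figure D3:**
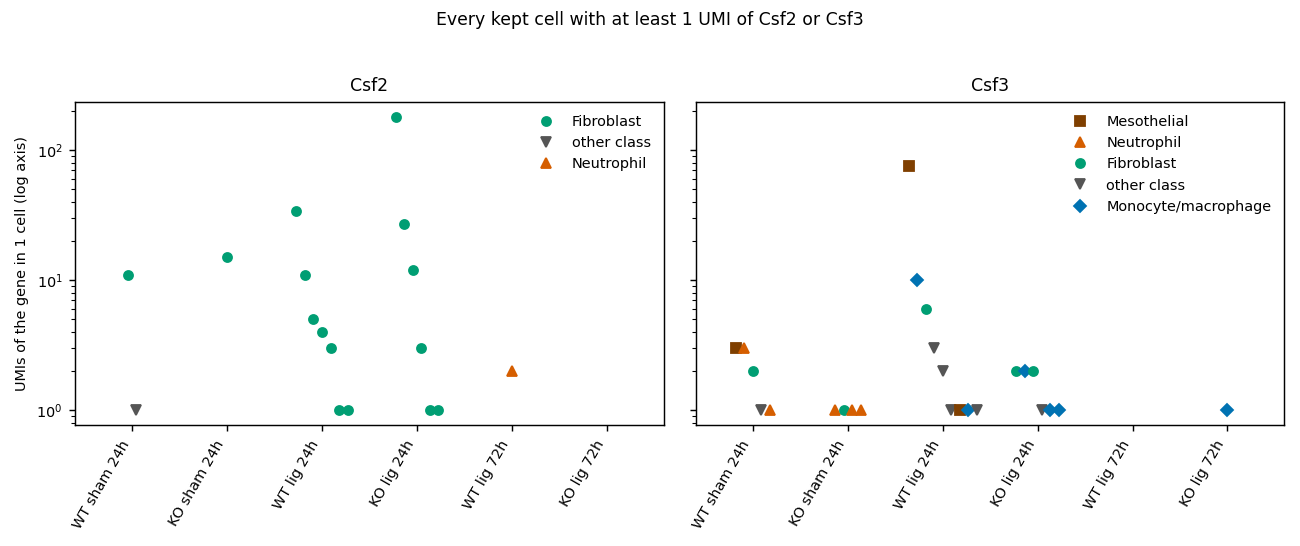
UMIs of Csf2 (left) and Csf3 (right) in each kept cell that had any, by library, on a log axis, with symbols for the cell class. The KO ligation 24 h fibroblast with 181 Csf2 UMIs and the WT ligation 24 h mesothelial cell with 76 Csf3 UMIs stand above all others.

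Il34 (chr8:110741829-110805924, minus strand), the other ligand of the Csf1 receptor, was a gene of the vessel wall. In pericytes its level was 237 CPM [183 to 302] in WT sham, 231 [176 to 299] in KO sham, 112 [70.8 to 168] in WT ligation 24 h, 141 [100.2 to 193] in KO ligation 24 h, 83.2 [53.3 to 124] in WT ligation 72 h and 185 [104 to 305] in KO ligation 72 h. The sham libraries were the highest, from 65 and 58 UMIs. Smooth muscle cells followed with 52.5, 65.2, 42.6, 51.5, 77.1 and 51.4, close to each other in all libraries. Fibroblasts had 0.999 to 6.23, and neutrophils, monocyte/macrophage cells and endothelial cells had at most 6 UMIs in a library. At 24 h after ligation pericyte Il34 was 0.471 times the sham level in WT [0.279 to 0.768], called lower, where 10.1% of all pericyte genes were called, and 0.609 times in KO [0.395 to 0.929], not called (11.4% of all). Only 21 to 86 pericytes per library lay behind these values, and the intervals of WT ligation 24 h and KO ligation 24 h overlapped widely (ratio 1.26 [0.735 to 2.21]). In fibroblasts Il34 was 5.34 times higher at 72 h than at 24 h in WT [1.58 to 28.1], called on 20 against 3 UMIs, and 4.42 times in KO [1.26 to 23.7], which had too few UMIs for a call. In KO ligation 72 h, 8 of the 53 Il34 UMIs lay in an unnamed cluster led by Gm13889 and Rgs5, a pericyte marker, and 331 of its 356 cells came from that library.

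Weighted by cell numbers, neutrophils were the largest source of Csf1 in all 6 libraries. They supplied 59.4% of Csf1 UMIs in WT sham, 41.8% in KO sham, 60.1% in WT ligation 24 h, 76.2% in KO ligation 24 h, 70.1% in WT ligation 72 h and 42.5% in KO ligation 72 h. Neutrophils were 16.7%, 11.8%, 34.2%, 51.7%, 21.5% and 6.36% of the kept cells, so their share of Csf1 exceeded their share of cells in every library. Fibroblasts supplied 14.4% to 27.2% of Csf1 UMIs. Pericytes and smooth muscle cells together gave most Il34 UMIs in every library but KO ligation 72 h, where pericytes gave 28.3% and smooth muscle cells 9.43%, and fibroblasts gave 33.9% in WT and 30.2% in KO at 72 h. These shares follow the makeup of the sorted suspension, which digestion and meshing can change.

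**Figure D4:**
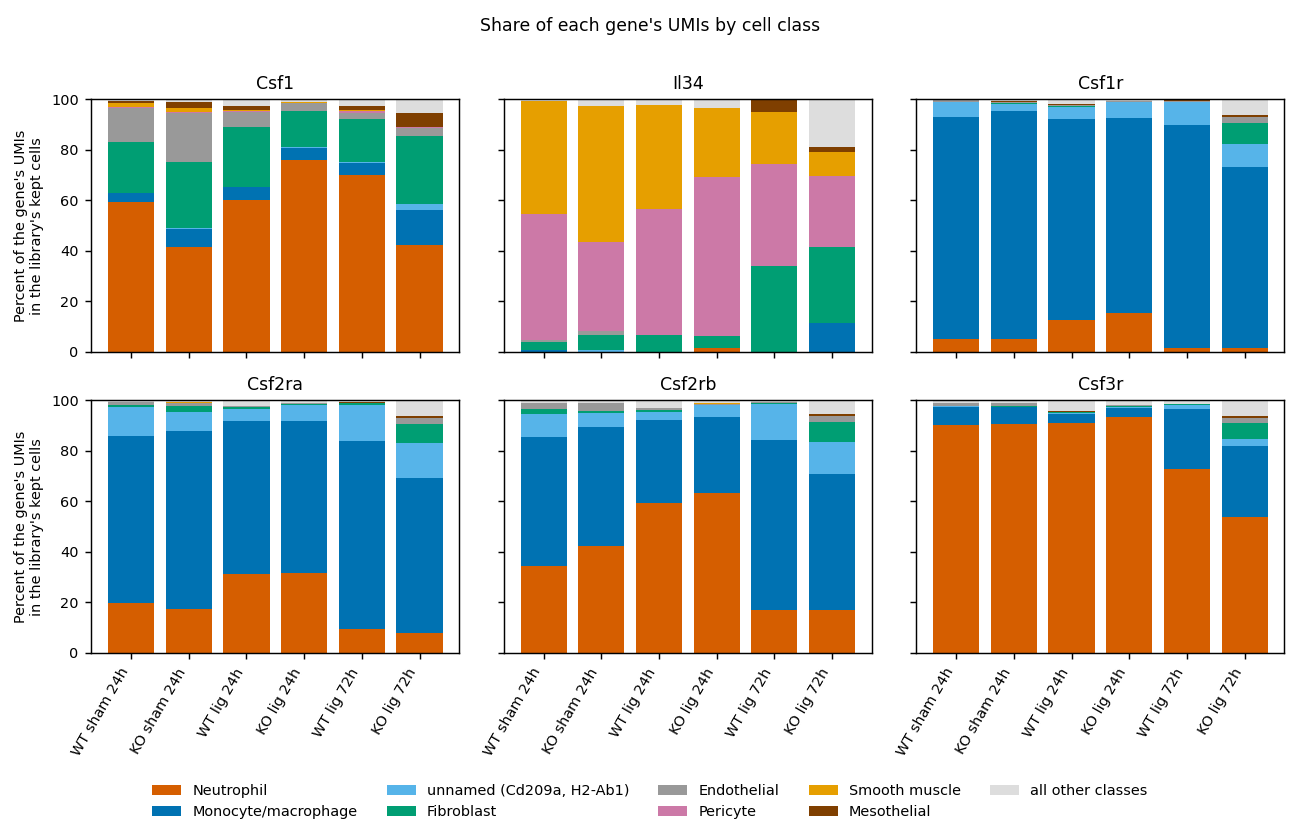
Percent of each gene's UMIs in the kept cells of a library that came from each cell class, for the 6 genes with enough UMIs. Neutrophils give 41.8% to 76.2% of Csf1 and 54.0% to 93.6% of Csf3r, and monocyte/macrophage cells give 71.4% to 90.3% of Csf1r.

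Csf1r was the mark of monocyte/macrophage cells, which held 71.4% to 90.3% of its UMIs. Their level was 403 CPM in WT sham, 389 in KO sham, 273 in WT ligation 24 h, 254 in KO ligation 24 h, 355 in WT ligation 72 h and 338 in KO ligation 72 h. Both genotypes were lowest at 24 h after ligation, at 0.678 times sham in WT [0.645 to 0.713] and 0.651 times in KO [0.623 to 0.681], and both were higher again at 72 h, 1.30 and 1.33 times the 24 h level, all short of 2-fold. The median of all genes in these cells moved at 24 h too, by -0.14 in WT and -0.30 in KO on the log2 scale, and relative to it Csf1r was lower by -0.42 and -0.32. Genotypes were close at each time, with KO to WT ratios of 0.967, 0.929 and 0.954.

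Among macrophage clusters, Csf1r was highest in that led by Mgl2, with Lyve1, Cd163 and Folr2, genes known from resident tissue macrophages. That cluster had 928, 871, 568, 536, 847 and 774 CPM, lower at 24 h than at the other times in both genotypes. It held 20.9% and 26.0% of monocyte/macrophage cells after sham, 9.13% and 7.37% at 24 h and 2.07% and 1.48% at 72 h. The cluster led by Ccl24, with Arg1 and Ccl2, held 50.7% to 65.4% at 24 h and after sham and had 212 to 312 CPM, also lowest at 24 h (232 in WT and 212 in KO). At 72 h further clusters were led by Syngr1, with Trem2 and Gpnmb (27.6% of the class in WT and 14.0% in KO, at 356 and 379 CPM), by Cxcl10 (24.7% and 3.60%, at 379 and 404) and by dividing-cell genes (270.1 and 221). In KO ligation 72 h the largest cluster was the low-depth one led by Mpeg1, with 49.0% of the class and 277 CPM. The cluster led by Gm9733, with Plac8 and Ear2, was present throughout and had 388, 338, 313, 300.0, 397 and 357. In these 3 clusters followed over all libraries (Mgl2, Ccl24 and Gm9733), the value at 24 h after ligation was the lowest of the 3 time points in both genotypes, as in the class.

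Neutrophils also had Csf1r UMIs, 127, 129, 88.2, 101, 82.5 and 93.9 CPM, which is 23.3% to 39.9% of the monocyte/macrophage level. The median monocyte/macrophage marker in neutrophils stood at 0.588% to 3.79% of its level in monocyte/macrophage cells in the same libraries. The unnamed cluster led by Cd209a and H2-Ab1, which are dendritic cell genes, had 135 to 241 CPM of Csf1r. For Csf1r in neutrophils, the thinned share of cells with a UMI was 7.52% to 11.6%. Endothelial cells had 0.131% to 0.858% in the 5 libraries other than KO ligation 72 h. In KO ligation 72 h endothelial cells had 87.0 CPM of Csf1r beside 93.9 in neutrophils. The part of monocyte/macrophage RNA in the neutrophil values was not tested.

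Csf2ra (chr19:61223957-61228429, minus strand), the binding chain for Csf2, was shared by 3 myeloid groups at similar levels. Neutrophils had 412, 327, 342, 305, 402 and 363 CPM, monocyte/macrophage cells 256, 232, 320.0, 290, 227 and 227, and the Cd209a cluster 267, 287, 319, 310.2, 293 and 234. In CPM, neutrophils exceeded monocyte/macrophage cells in every library, by less at 24 h after ligation than at the other times. Per cell the order was the reverse in every library. In WT sham, 2912 UMIs lay in 1076 monocyte/macrophage cells and 878 in 881 neutrophils. In KO ligation 72 h, where the classes were closest, 2377 lay in 2776 and 313 in 434. In monocyte/macrophage cells Csf2ra was 1.25 times sham at 24 h in both WT [1.19 to 1.32] and KO [1.19 to 1.32], then 0.708 and 0.785 times the 24 h level at 72 h. None of the 14 ratios of Csf2ra in neutrophils and monocyte/macrophage cells reached 2-fold.

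Csf2rb (chr15:78325752-78353847, plus strand), the shared signalling chain, had its highest level in neutrophils. They had 393 CPM in WT sham, 420.3 in KO sham, 541 in WT ligation 24 h, 478 in KO ligation 24 h, 267 in WT ligation 72 h and 314 in KO ligation 72 h. Monocyte/macrophage cells had 109, 82.4, 145, 113, 75.3 and 82.1, and the Cd209a cluster 115, 105, 188, 179, 103 and 87.8. In all 3 groups and both genotypes the level was highest at 24 h after ligation and lowest at 72 h. In KO monocyte/macrophage cells, though, the 72 h value (82.1) was almost that after sham (82.4). At 24 h it was 1.14 to 1.70 times sham in these groups, and none of these ratios was called. From 24 h to 72 h it was 0.494 times in WT neutrophils [0.449 to 0.543], called lower (0.575 with clusters at resolution 0.5, not called), and 0.657 times in KO neutrophils, 0.520 and 0.726 times in monocyte/macrophage cells, and 0.547 and 0.491 times in the Cd209a cluster, where the KO value was called (9.62% of all genes there were, and 16.6% in WT). Relative to the median of all neutrophil genes, the 72 h to 24 h values in neutrophils were -1.66 (WT) and -1.22 (KO) on the log2 scale. Within each neutrophil cluster present at 24 h and 72 h, both genotypes also had a lower value at 72 h.

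Csf2rb2 (chr15:78282507-78305721, minus strand), a near-identical neighbour that encodes the IL-3-specific beta chain in mice, followed the same course in neutrophils, with 41.3, 59.9, 82.9, 74.2, 31.7 and 25.5 CPM. At 24 h it was 2.01 times sham in WT and 1.24 times in KO [0.996 to 1.56], the latter not called and with an interval that reached below no change. At 72 h it was 0.383 (WT) and 0.344 (KO) times the 24 h level. The counting could split reads between the 2 copies, so their separate values are uncertain.

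Csf3r (chr4:126024550-126044440, plus strand) was chiefly a neutrophil gene. Neutrophils had 1881 CPM in WT sham, 2039 in KO sham, 1476 in WT ligation 24 h, 1823 in KO ligation 24 h, 1363 in WT ligation 72 h and 1378 in KO ligation 72 h, and 83.9% to 96.0% of them had a UMI (68.0% to 79.9% thinned). Monocyte/macrophage cells had 27.2, 26.3, 28.3, 34.6, 31.3 and 58.5, the next level among the main classes in every library. In KO ligation 24 h endothelial cells were close to them, at 33.5 with overlapping intervals. The neutrophil level was 0.785 times sham at 24 h in WT [0.754 to 0.817] and 0.894 times in KO, and 0.923 and 0.756 times the 24 h level at 72 h, with no call. Relative to the median of all neutrophil genes, the 72 h to 24 h values were -0.76 (WT) and -1.02 (KO) on the log2 scale. At 24 h KO neutrophils had 1.23 times the WT level [1.20 to 1.27], and after sham and at 72 h the ratios were 1.08 and 1.01. Among monocyte/macrophage clusters, that led by Gm9733, with Plac8 and Ear2, had 51.6 to 79.5, and the low-depth Mpeg1 cluster of KO ligation 72 h had 182. At 72 h neutrophils held 73.0% of Csf3r UMIs in WT and 54.0% in KO, against 90.4% to 93.6% in the other 4 libraries. In WT their share of kept cells at 72 h was below that at 24 h after ligation but above that after sham. In KO it was below both.

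Receptor UMIs also appeared in fibroblasts and endothelial cells, where they are not known as defining genes, and chiefly in KO ligation 72 h. In fibroblasts of that library Csf1r stood at 138 CPM against 2.25 to 5.91 in the other 5, Csf2ra at 100.4 against 9.74 to 18.7, Csf2rb at 42.3 against 3.78 to 11.7, and Csf3r at 46.3 against 0.890 to 17.0. The KO to WT ratios at 72 h were 23.4, 5.38, 10.5 and 11.5 in fibroblasts and 7.39, 8.52, 3.50 and 18.5 in endothelial cells, all called higher. As UMIs per cell, Csf1r, Csf2ra, Csf2rb and Csf3r were 2.53, 0.581, 1.13 and 1.24 times WT in fibroblasts and 2.22, 2.56, 1.05 and 5.54 times in endothelial cells, so 4 of the 8 were no longer called higher, and Csf2ra in fibroblasts turned. In the same fibroblasts the 12 monocyte/macrophage markers summed to 8329 CPM, against 63.4 to 374 in the other libraries. Their median was 37.6% of the monocyte/macrophage level (30.9% to 45.8%, with 0 of 12 at 0), and Csf1r was at 40.9% of it. In endothelial cells of KO ligation 72 h the markers summed to 3943 CPM, against 98.6 to 739 elsewhere, with a median of 17.1% of the monocyte/macrophage level beside 25.7% for Csf1r. In endothelial cells of KO ligation 24 h, Csf3r was 33.5 CPM, 10.3 times KO sham, and the 10 neutrophil markers summed to 2917 CPM, against 176 in KO sham, with a median of 1.98% of the neutrophil level beside 1.84% for Csf3r. The part of these other cells' RNA in the receptor values was not tested.

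Signalling and target genes, related ligands and receptors, and lineage transcription factors were taken from 4 lists with 40 genes in all. Of the 7 feedback and target genes, 4 were called higher in monocyte/macrophage cells at 24 h after ligation in WT (Socs1, Socs3, Cish and Pim1) and 3 in KO (Socs1, Socs3 and Cish), with 0 lower, where 3.11% (WT) and 2.19% (KO) of all their genes were called higher. The list's median log2 ratio was 1.08 in WT and 0.58 in KO beside -0.14 and -0.30 over all genes. In neutrophils 6 could be measured, and 3 were called higher in WT (Socs1, Cish and Bcl2l1) and 2 in KO (Socs1 and Cish), with 0 lower, where 5.75% and 4.02% of all genes were called higher, and with medians of 0.62 and 0.32 beside -0.25 and -0.19. By 72 h, 4 were called lower than at 24 h in WT monocyte/macrophage cells (Socs3, Cish, Pim1 and Mcl1) and 2 in KO (Socs3 and Cish), where 8.18% and 3.2% of all genes were. In neutrophils 3 of 6 were called lower in each genotype (Socs1, Cish and Bcl2l1), where 6.86% and 5.55% of all genes were. Many cytokines besides colony-stimulating factors induce these genes.

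Cish, a STAT5-induced inhibitor of cytokine signalling, had the widest range. In neutrophils it was 13.6 CPM in WT sham, 26.7 in KO sham, 242 in WT ligation 24 h, 108 in KO ligation 24 h, 10.7 in WT ligation 72 h and 1.16 in KO ligation 72 h. That is 17.8 times sham in WT at 24 h [12.3 to 26.7] and 4.03 times in KO [2.95 to 5.66]. Monocyte/macrophage cells had 2.28, 6.47, 29.9, 14.9, 1.17 and 2.30. At 24 h the KO level was 0.445 times the WT level in neutrophils [0.408 to 0.486] and 0.496 times in monocyte/macrophage cells, both called lower. Cish is among the leading genes of the Cstdc4 cluster, which held 62.9% of WT and 37.0% of KO neutrophils at 24 h. Socs1, another such inhibitor, was 8.99 times sham in WT neutrophils and 4.37 times in KO. Socs3, which restrains signalling by the Csf3 receptor, was 306 and 260.3 CPM in monocyte/macrophage cells at 24 h, 2.12 and 2.11 times sham.

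**Figure D5:**
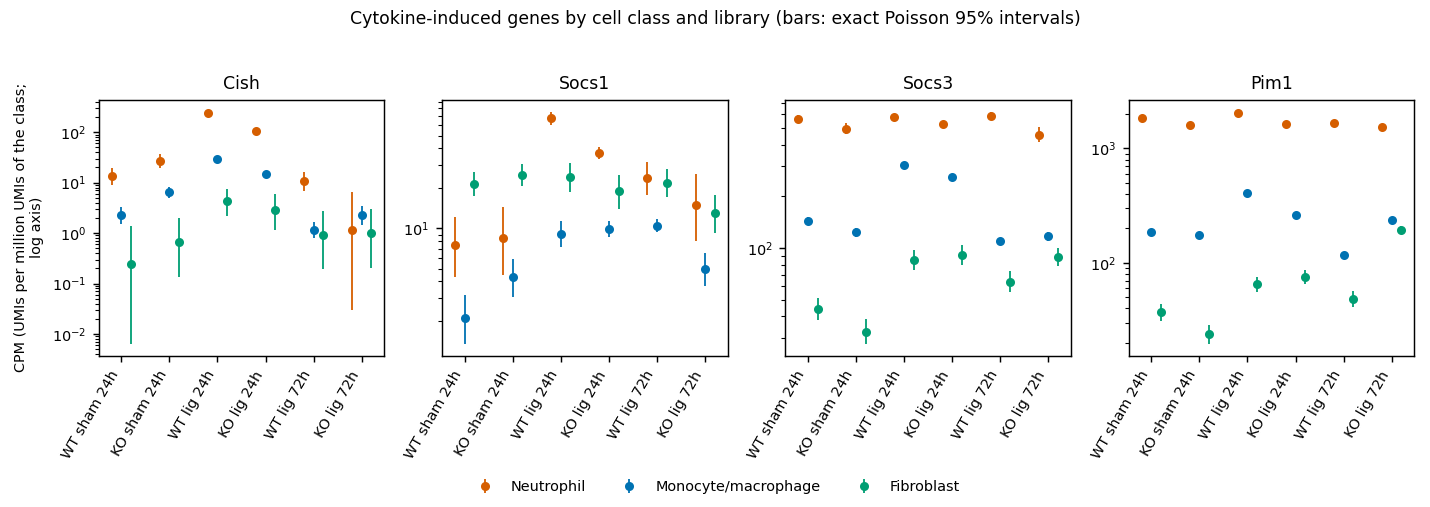
Levels of Cish, Socs1, Socs3 and Pim1, in CPM on a log axis, in neutrophils, monocyte/macrophage cells and fibroblasts of the 6 libraries, with exact Poisson 95% intervals. Cish peaks at 24 h after ligation in neutrophils and monocyte/macrophage cells, with WT (242 and 29.9) above KO (108 and 14.9).

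Of the 13 receptor signalling genes, such as Jak2, Lyn and Stat5b, 0 were called in monocyte/macrophage cells at 24 h against sham in either genotype, and 1 in WT neutrophils, Stat5a, which was lower. Over all genes the share called lower was 6.7% (WT) and 11% (KO) in the former class, and for neutrophils it was 10.7% and 7.15%. Of the lineage transcription factors, 8 could be measured in monocyte/macrophage cells, with 0 called at 24 h. At 72 h against 24 h, Cebpb, Cebpe and Klf4 were lower there in WT and Cebpb and Cebpe in KO. Of all genes in these cells, 8.18% (WT) and 3.2% (KO) were called lower from 24 h to 72 h. Cebpb, a driver of emergency production of granulocytes, was 4332 and 3584 CPM in neutrophils at 24 h after ligation and 1185 and 1331 at 72 h. Among the related ligands and receptors, the ligands Il3 and Il5 had 0 UMIs in the 4 main classes of all libraries. Kitl, which encodes stem cell factor, was 683 and 690.0 CPM in endothelial cells after sham, 552 and 502 at 24 h after ligation and 307 and 226 at 72 h.

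The genes most like each member in pattern were taken over 58 sums of a class in a library with at least 50 cells, by Pearson's r of log2 levels among 12953 genes. These sums share libraries and depth, so r is a description. Csf1r was close to Lrrc25 (0.96), Cfp (0.95) and P2ry6 (0.95), Csf2ra to Tgfbi (0.94) and Rbm47 (0.93), Csf2rb to Clec5a (0.95), Pilrb2 (0.95) and Lilr4b (0.94), and Csf3r to Trem1 (0.96), Hdc (0.93) and Cxcr2 (0.92). Il34 was closest to A830082K12Rik, Klhl23 and Ednra, an endothelin receptor gene of mural cells, each at 0.97. Csf2 was closest to Has1 (0.83), Cyp2e1 (0.77) and Mmp3 (0.76). Its UMIs lay almost wholly in fibroblasts, with 181 of the 313 in 1 cell, so these r values rest on a few sums. Csf1, which is high in both neutrophils and fibroblasts, had looser matches, among them Igf1r (0.77) and Ski (0.75). With its own receptor gene Csf1 had an r of 0.04, and Il34 with Csf1r had -0.42. Csf3 had too few UMIs for this measure.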

How the data were processed

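Matrices from 10x 3' libraries were deposited as raw UMI counts, whole numbers for each gene in each cell. Cell Ranger 6.0.0 wrote them per the file headers, and the submitters' processing notes name the mm10 build. Gene positions came from GENCODE M21 (GRCm38) and promoters from RefSeq. Cells with at least 200 genes and at most 20% mitochondrial UMIs were kept. Scrublet doublets were removed at 0.8% per 1000 cells, because its automatic threshold marked 0 to 58 cells per library. After scaling to 10000 per cell and taking logs, 2000 variable genes without the 8 members gave 30 principal components, 20 neighbours and Leiden clusters at resolution 1 (scanpy 1.11.5, leidenalg 0.10.2), with no correction between libraries. Clusters were named from markers of 16 classes, and a cluster stayed unnamed with under 3 markers or where its leading genes held more of another class. That left 4 unnamed.

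UMIs were summed per class and library and divided by all UMIs of those cells. Levels have exact Poisson, shares exact binomial (Clopper-Pearson) and ratios exact conditional 95% intervals (scipy 1.17.1), and a count of 0 was set to 3 for a bound. With 1 library per group no test was made. The ratio script was tested on simulated counts. The members and gene lists were chosen with earlier results of these data known. Named genes are the members, the list genes that passed the 2-fold rule or belong to the receptors' pathway, and the 3 genes most like each member with at least 200 UMIs, with a pseudocount of 1. Some genes that this rule names are not reported here.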

Additional observations from a re-analysis of the deposited data

Results flagged for a closer look

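In 6 cases the genotypes moved in opposite directions under the same contrast, each from 1 library per group, and the difference itself was not tested. Csf1 in monocyte/macrophage cells was 1.97 times sham at 24 h after ligation in WT and 0.486 times in KO, and from 24 h to 72 h 0.142 times in WT and 1.47 times in KO. The KO sham level under the 0.486 came in part from 1 cell, as given above. In fibroblasts, from 24 h to 72 h, Csf2rb was 0.372 times in WT and 7.45 times in KO, and Csf3r 0.434 and 2.72 times. Over the same interval Csf1r in B cells was 0.24 times in WT (6 against 17 UMIs) and 45.9 times in KO, the latter on 36 against 1 UMI [7.72 to 1861]. Csf2ra in T, NK and innate lymphoid cells was 0.0726 times in WT, on 2 against 25 UMIs [0.00834 to 0.291], and 8.7 times in KO, on 37 against 4 [3.12 to 33.6]. In KO ligation 72 h the median monocyte/macrophage marker stood at 29.3% of its own class's level in B cells and 36.6% in T, NK and innate lymphoid cells, against 4.94% and 1.32% in WT ligation 72 h. The part of these markers in the flagged values was not tested.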

How the results depend on the processing

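Of 158 single ratios, 45 were past 2-fold, and 12 alternatives were run. Under clustering at resolution 0.5 or 2, 44 of 45 and 43 of 44 stayed past it in the same direction, with the members among the variable genes 44 of 44, with at most 10% mitochondrial UMIs or at least 1500 UMIs per cell 43 of 43 each, and with median-of-ratios scaling 42 of 45. Fewer did without doublet removal (33 of 45), as a mean over cells (36 of 45), as UMIs per cell (29 of 45) or without the top cell (39 of 42); the last 2 were chosen after seeing the data. In 4 cases the direction turned: Csf1r in WT fibroblasts at 24 h against sham became 0.845 times (-0.24 in log2) without doublet removal, Csf3r in WT fibroblasts at 72 h against 24 h became 1.495 times (0.58) as a mean over cells, and, as UMIs per cell, Csf3r in KO fibroblasts at 72 h against 24 h became 0.488 times (-1.04) and Csf2ra in KO against WT fibroblasts at 72 h became 0.581 times (-0.78). The 3 calls of WT ligation 24 h against sham became 5 with median-of-ratios scaling, 1 with at least 50 UMIs, 9 with at least 1 UMI and 6 as UMIs per cell. The 9 of WT at 72 h against 24 h became 5 as a mean over cells and 5 with at least 50 UMIs. The 3 of KO against WT after sham became 5 as a mean over cells and 9 with at least 1 UMI, and the 4 at 24 h became 2 without doublet removal and 7 with at least 1 UMI. The cause was not tested. Neutrophil Csf1 in KO at 24 h against sham was 0.554 times with median-of-ratios scaling and 0.586 times per cell. Csf1 in KO against WT monocyte/macrophage cells at 72 h was 3.31 times with at least 1500 UMIs per cell and 1.67 times per cell. WT neutrophil Csf2rb at 72 h against 24 h was 0.575 times at resolution 0.5.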
